A study of Homo sapiens with 12 samples.

Results

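The cap-binding translation initiation factors and their inhibitors were followed through RNA-seq and MeRIP-seq of oral squamous cell carcinoma (OSCC) cells with and without rapamycin. The set comprised 10 genes, which were chosen by name and matched to 10 of the 58302 gene identifiers of the count table and to the peaks carrying the same identifiers. It included the scaffolds *EIF4G1*, *EIF4G2* and *EIF4G3*, the cap-binding proteins *EIF4E* and *EIF4E2*, the helicases *EIF4A1* and *EIF4A2*, the helicase cofactor *EIF4B*, and the inhibitors *EIF4EBP1* and *EIF4EBP2*. All 10 had enough counts to be tested, as did 15826 genes in all.

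The eIF4F complex binds the 5′ cap of an mRNA and recruits the small ribosomal subunit. eIF4E holds the cap, eIF4G is the scaffold on which the other parts assemble, and eIF4A, helped by eIF4B, unwinds the leader of the mRNA. The 4E-BPs compete with eIF4G for eIF4E and are released from eIF4E when mTOR complex 1 phosphorylates them. Rapamycin inhibits mTOR complex 1 and is widely used to induce autophagy. m6A, a methyl mark on internal adenosines of mRNA, is mapped in MeRIP-seq by sequencing RNA fragments pulled down with an antibody beside the input RNA.

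RNA-seq comprised 4 libraries, 2 labelled with rapamycin at 100 nM and 2 labelled as controls. MeRIP-seq comprised 8 libraries, which form 1 pair of immunoprecipitated RNA and input for HSC3 and for CAL33, both established human OSCC lines, with and without 100 nM rapamycin. The labels name no vehicle and no time, and the autophagy model described by the study used 3 days of rapamycin. The RNA-seq labels place both rapamycin libraries in HSC3 and both control libraries in CAL33, so that, as labelled, cell line and treatment cannot be told apart in every mRNA comparison below. In the MeRIP-seq labels, number 1 is HSC3 and number 2 is CAL33 in both treatments.

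The RNA-seq libraries themselves divided by number and not by treatment. Log2 expression correlated across genes at 0.966 and 0.956 between the same-numbered libraries and at 0.761 to 0.811 between the others (genes are not independent replicates). Squamous markers summed to 965 and 1082 CPM (read counts scaled by the library total) in rapamycin 1 and control 1. In rapamycin 2 and control 2 they summed to 3993 and 4665 CPM. All marker sums here were scaled in this way, whereas the CPM of single genes below are TMM-scaled. Of these 8 markers, 6 were called higher and 1 (*CDH1*) lower in number 2. With the number as a block, 3 of the 8 were called lower with rapamycin (*KRT5*, *KRT6A* and *KRT14*, with log2 fold changes of −2.43, −5.46 and −2.85, the last gene at 0 counts in both number 1 libraries) and 0 higher, and their part in the results below was not tested. Of the 357 tested genes with m6A peaks in both HSC3 lists and no CAL33 list, 61.1% were lower in number 2 in both treatments, against 40.5% of all tested genes. Of the 189 genes with peaks in both CAL33 lists and no HSC3 list, 55.6% were higher in number 2 in both treatments, against 37.7% of all. The median rapamycin difference of these same genes was −0.06 and 0.02 on the log2 scale, beside 0.04 for all. The libraries are therefore called rapamycin 1, rapamycin 2, control 1 and control 2, and each member is given both without and with the number as a block. Totals were 18492273 to 23763098 counts per library. Of the 5 immune markers, 2 were at 0 in every library and none reached 10 counts, and 3 of 6 fibroblast markers were at 0. The fibroblast sum, 25.5 and 8.80 CPM in control 1 and 2 and 32.9 and 27.7 CPM in rapamycin 1 and 2, was nearly all *COL1A1*, which had 208 to 558 counts. The endothelial sum was 1.71 and 1.46 CPM in the number 1 libraries and 30.7 and 44.1 CPM in number 2, mostly *CDH5*, with *KDR* at 0. The part of these markers in the results was not tested either.

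Among the scaffolds, *EIF4G1* and *EIF4G2* were lower in both rapamycin libraries than in both controls, and *EIF4G3* was not. *EIF4G1*, the main scaffold (chr3:184314606-184335358, GRCh38.p14), was measured at 957 and 1019 CPM in rapamycin 1 and 2 and at 1548 and 2032 CPM in control 1 and 2. The rapamycin libraries lay close together, and the distance between the groups was larger than the spread within either. The fit without a block gave a log2 fold change of −0.86 (SE 0.32, adjusted p = 0.9997). With the number as a block it was −0.84 (SE 0.26, adjusted p = 0.0467), a level 1.80-fold lower. This call was made in 2 of 5 blocked fits, and upper-quartile normalization gave an adjusted p of 0.0787. Since these are bulk libraries, fewer cells carrying a transcript and less of it per cell cannot be told apart.

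*EIF4G2* (chr11:10797046-10808926), also known as DAP5, is a paralog that lacks the eIF4E-binding region and serves cap-independent initiation. Its level was 764 and 511 CPM in rapamycin 1 and 2 and 1323 and 1553 CPM in control 1 and 2. It had the largest negative difference of the 10 members, with the higher rapamycin value still well under the lower control value. The log2 fold change was −1.17 (SE 0.36, adjusted p = 0.9997) without a block and −1.20 (SE 0.28, adjusted p = 0.00879) with it, a level 2.29-fold lower. *EIF4G2* passed the threshold in 5 of 5 blocked fits, with adjusted p between 0.00376 and 0.0181. Pair 1 differed by −0.79 and pair 2 by −1.60 on the log2 scale, and whether the pairs differ cannot be tested in 4 libraries.

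*EIF4G3* (chr1:20806292-21176897), a second full-length scaffold, was measured at 135 and 113 CPM with rapamycin and at 123 and 99.8 CPM in the controls. Its groups overlapped, and each number 1 library was above the number 2 library of the same treatment. The log2 fold change with the block was 0.16 (SE 0.25, adjusted p = 0.751). The 3 scaffolds thus included 2 whose mRNA passed the threshold downward and 1 with an estimate of 0.16.

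**Figure D1:**
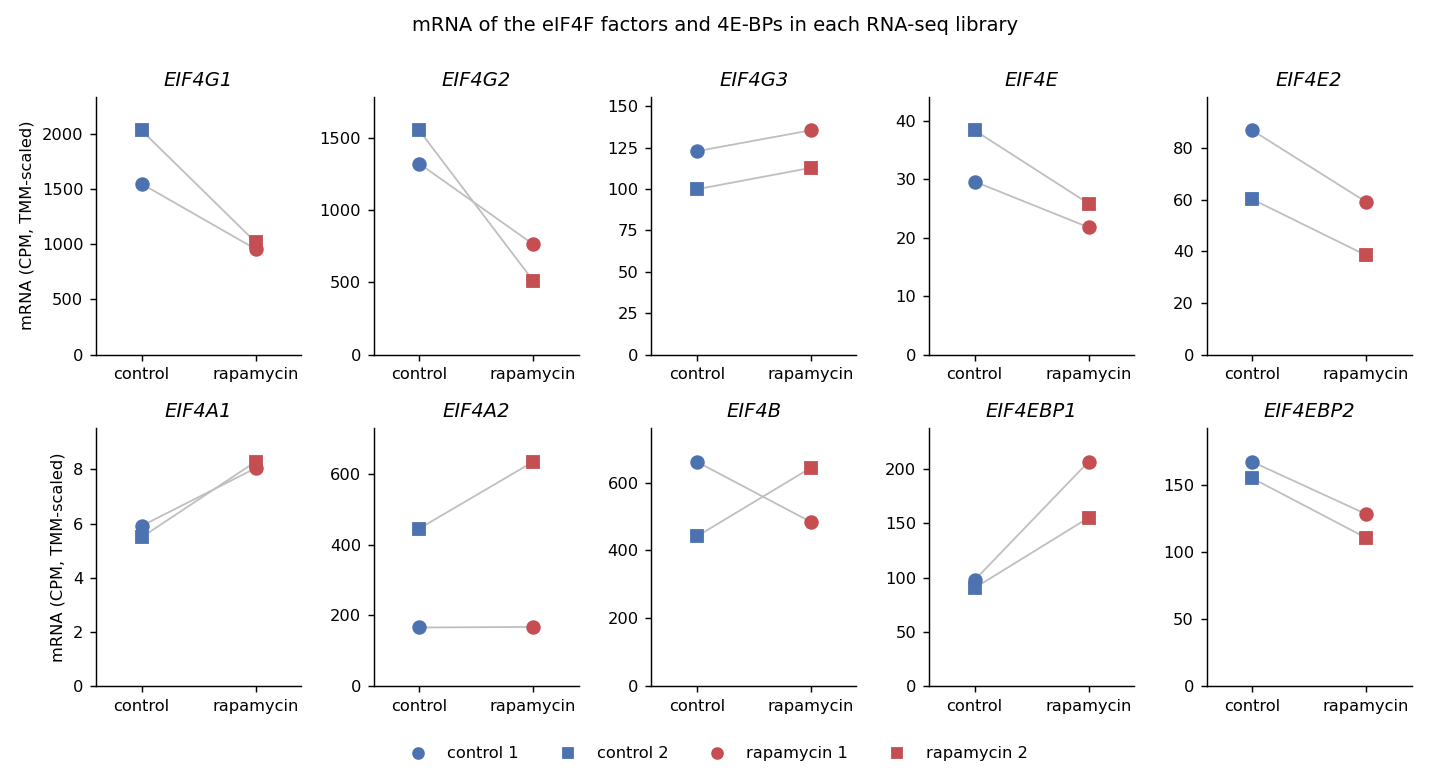
mRNA level of each of the 10 members in CPM (vertical axes, each from 0 with its own range) in the control libraries (blue) and the rapamycin libraries (red), circles for number 1, squares for number 2, and grey lines joining libraries of the same number. Both red points lie below both blue points for EIF4G1, EIF4G2, EIF4E, EIF4E2 and EIF4EBP2, both lie above for EIF4A1 and EIF4EBP1, and the lines cross for EIF4B, where pair 1 differed by −0.45 and pair 2 by 0.54 on the log2 scale.

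The cap-binding proteins were both lower with rapamycin in both pairs, and neither passed the threshold after adjustment. *EIF4E* (chr4:98879276-98929133) was measured at 21.8 and 25.8 CPM with rapamycin and at 29.6 and 38.4 CPM in the controls. The groups did not overlap, but the log2 fold change with the block, −0.51, had an SE of 0.30 and an adjusted p of 0.318. *EIF4E2* (chr2:232550689-232583644), also known as 4EHP, binds the cap and takes part in repressing mRNAs. It was measured at 59.1 and 38.5 CPM with rapamycin and at 86.9 and 60.2 CPM in the controls. The higher rapamycin value and the lower control value were nearly the same, and the log2 fold change with the block was −0.60 (SE 0.27, adjusted p = 0.168).

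The helicases and *EIF4B* gave no call for rapamycin, and each had a feature of its own. *EIF4A2* (chr3:186783577-186789897), the second eIF4A paralog, was measured at 167 CPM in rapamycin 1 and 166 CPM in control 1, but at 635 CPM in rapamycin 2 and 446 CPM in control 2. It divided by number: the level in number 2 over number 1 had a log2 fold change of 1.67 (SE 0.27, adjusted p = 1.1e-05), 3.19-fold. *EIF4A2* was the one member of 10 that passed this test, beside 17.0% of all tested genes called higher in number 2 and 20.2% called lower. For rapamycin its log2 fold change with the block was 0.26 (SE 0.26, adjusted p = 0.578).

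*EIF4B* (chr12:53006456-53042215) was measured at 484 and 644 CPM in rapamycin 1 and 2 and at 661 and 441 CPM in control 1 and 2. It was the one member whose pairs went in opposite directions, at −0.45 in pair 1 and 0.54 in pair 2 on the log2 scale. The blocked estimate, 0.05 (SE 0.28, adjusted p = 0.937), averages these opposite values. Its SE is close to the 0.25 of *EIF4EBP2*, whose pairs were alike at −0.38 and −0.49. The SE therefore hardly reflects the distance between the pairs. Of all tested genes, 30.1% had pairs of opposite direction.

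*EIF4A1* (chr17:7572825-7579006), the main helicase of the complex, had 153 and 151 counts with rapamycin and 128 and 130 in the controls, the fewest of the members. Its level was 8.05 and 8.28 CPM against 5.91 and 5.49 CPM, and the log2 fold change with the block was 0.52 (SE 0.44, adjusted p = 0.502). The whole of *EIF4A1* lies inside the annotated readthrough gene *SENP3-EIF4A1* (chr17:7561992-7579006), which itself had 0 to 7 counts per library. How reads shared by overlapping genes were counted is not given in the sources used here, so the low count of *EIF4A1* is uncertain as a measure of its mRNA.

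mTOR complex 1 is known for controlling the translation of TOP mRNAs, which begin with a C followed by a run of C and T bases. The members' annotated transcript starts were therefore read from the RefSeq promoter table (GRCh38.p14), which held 14 starts for 9 of the 10 members; none is given for *EIF4EBP1*. The letters searched, on the transcribed strand only, were a C at the start followed by at least 4 bases that are each C or T. They were found at 1 start each of *EIF4A2* and *EIF4B*, and at 4.07% of all 35116 starts in the table and 5.1% of the starts of tested genes. Of 83 starts of cytosolic ribosomal protein genes, the classic TOP mRNAs, 57.8% held them. Among the 2 gene lists described below, they were at 5 of 24 starts of the other initiation factors and 0 of 34 starts of the cap partners. The windows below run from 15 bases before the start to the first 15 bases of the transcript, and capitals mark the run of C and T from the start. *EIF4A2* and *EIF4B* are shown for the match, and *EIF4G1* and *EIF4G2*, at their outermost start, as the members called lower in the blocked fit, neither of which held it at any listed start.
EIF4A2, chr3:186783562-186783591, plus strand: gttgggcgccgctgtCTTTTCagtcgggcg
EIF4B, chr12:53006441-53006470, plus strand: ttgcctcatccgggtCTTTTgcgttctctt
EIF4G1, chr3:184314591-184314620, plus strand: tctgtgcggggagccggaaatggttgtgga
EIF4G2, chr11:10808912-10808941, minus strand: cagacacgccttagcgccagcagtgagtcg
A match describes the letters at an annotated start and not the starts used in these cells. The members with the match were *EIF4A2*, which divided by number, and *EIF4B*, whose pairs were opposite.

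The inhibitors lay on opposite sides of the control level, and one of them passed the test. *EIF4EBP1* (chr8:38030534-38060365), which encodes 4E-BP1, was measured at 207 and 155 CPM in rapamycin 1 and 2 and at 97.5 and 90.3 CPM in control 1 and 2. Both rapamycin libraries were well above both controls, which differed little from each other. The log2 fold change was 0.94 (SE 0.31, adjusted p = 0.9997) without a block and 0.93 (SE 0.26, adjusted p = 0.0249) with it, a 1.91-fold higher level. *EIF4EBP1* passed the threshold in 5 of 5 blocked fits, with adjusted p between 0.0118 and 0.0321, and was the one member called higher. *EIF4EBP2* (chr10:70404145-70428618), which encodes the related 4E-BP2, was measured at 128 and 111 CPM with rapamycin and at 167 and 155 CPM in the controls. Its groups did not overlap either, in the opposite direction, and its log2 fold change with the block was −0.44 (SE 0.25, adjusted p = 0.302).

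**Figure D2:**
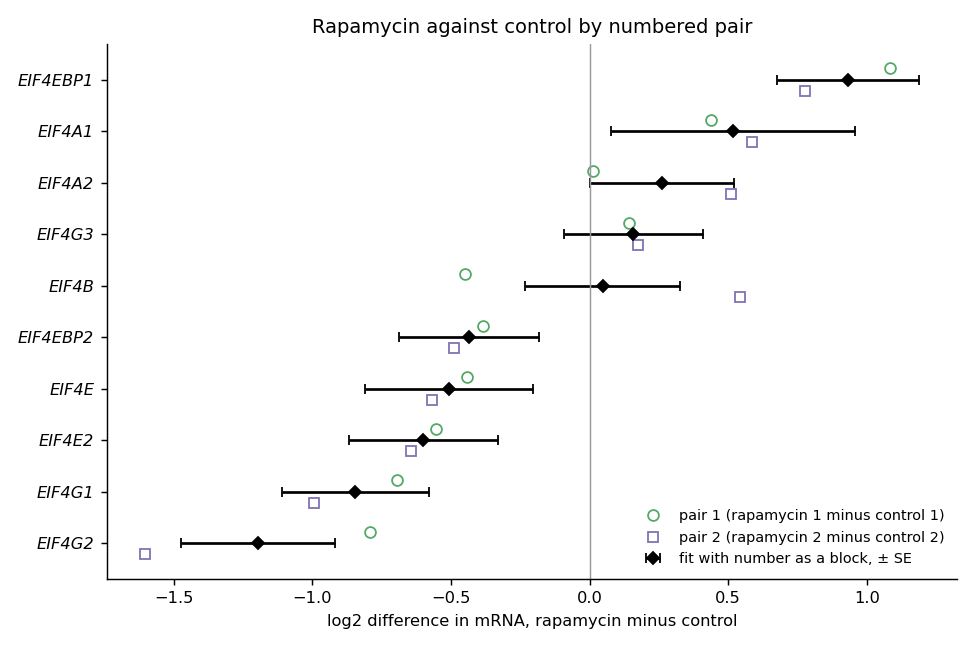
Log2 difference in mRNA between rapamycin and control (horizontal axis) for each member, as the value within pair 1 (open circles), the value within pair 2 (open squares) and the estimate with the number as a block (diamonds, bars ± SE). EIF4G2, at −1.20, and EIF4EBP1, at 0.93, lie at the ends, and EIF4B is the member whose pairs fall on opposite sides of 0. The bars rest mostly on spread shared across genes and hardly reflect the distance between the pairs.

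Across the 10 members, 2 fell (*EIF4G1* and *EIF4G2*), 1 rose (*EIF4EBP1*) and 7 did not pass the threshold in the blocked fit. Of all tested genes, 3.50% were called lower and 4.65% called higher in that fit. Without the block, 0 of 15826 genes (0%) were called by edgeR's quasi-likelihood test, with 446 genes and 2 members under an unadjusted p of 0.05, while DESeq2 without the block called 42 genes and none of the members. The block brought 3736 genes and 4 members under an unadjusted p of 0.05. Both rapamycin libraries were below both controls for 5 members, beside 16.5% of all tested genes, and above both controls for 2 members, beside 15.0% of all tested genes. An exact permutation test over 2 against 2 libraries cannot go below a two-sided p of 0.333. Without the block, the p-values set rapamycin against the spread between the numbers, which differed at 5899 genes. With the block, they rest mostly on spread shared across genes and hardly on how unlike the pairs were, with 1 library per number and treatment. Nothing in the labels says that the libraries came from separate cultures, so spread between cultures of the same kind may not be measured.

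Ratios between members within a library do not depend on how libraries were scaled, and they set *EIF4G1* beside its paralogs and partners. The log2 ratio of *EIF4EBP1* to *EIF4EBP2* counts was −0.78 in control 1 and −0.78 in control 2, and 0.69 in rapamycin 1 and 0.49 in rapamycin 2. The controls were nearly identical, and the ratio was higher with rapamycin by 1.47 within pair 1 and 1.27 within pair 2. Relative to *EIF4E*, the target of both inhibitors, *EIF4EBP1* was higher with rapamycin by 1.53 and 1.35, whereas *EIF4EBP2* differed by 0.06 and 0.08. *EIF4EBP2* and *EIF4E* mRNA thus kept almost the same proportion within each pair. These ratios compare changes and not levels between genes, since counts were not corrected for gene length.

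The log2 ratio of *EIF4G1* to *EIF4EBP1* was 3.99 and 4.49 in control 1 and 2 and 2.21 and 2.72 in rapamycin 1 and 2. The shift was −1.78 in pair 1 and −1.77 in pair 2, although the ratio itself differed by number. Its parts were less alike on the log2 scale. *EIF4G1* differed by −0.69 in pair 1 and −0.996 in pair 2, and *EIF4EBP1* by 1.08 and 0.78. The near equality of the shifts thus came from unequal parts that offset each other, in a ratio that was not planned. The ratio of *EIF4G1* to *EIF4G3* differed by −0.83 and −1.17 within the pairs, with no overlap of the groups. The ratio of *EIF4G1* to *EIF4A1* differed by −1.14 and −1.59, with the reservation on the counts of *EIF4A1* given above. The ratio to *EIF4E* differed by less, −0.25 and −0.43, again without overlap. The ratio of *EIF4G1* to *EIF4G2* differed by 0.10 and 0.61 within the pairs, and its groups overlapped.

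**Figure D3:**
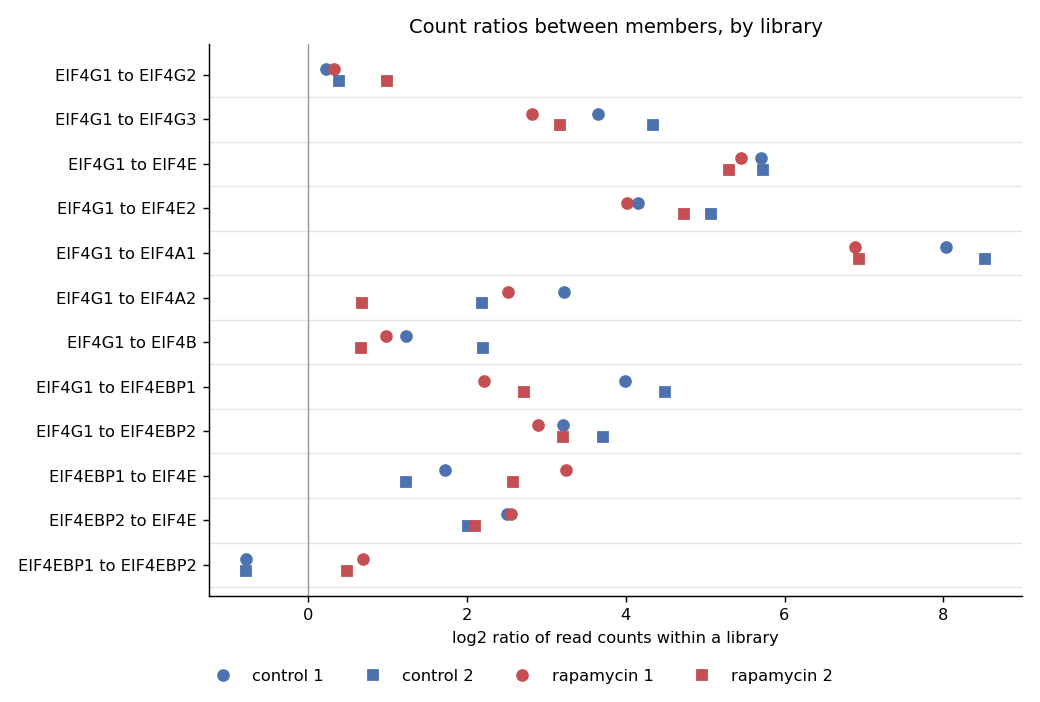
Log2 ratio of the read counts of 2 members within a library (horizontal axis) for 12 ratios, controls in blue, rapamycin in red, circles for number 1 and squares for number 2. The EIF4EBP1 to EIF4EBP2 ratio lies at −0.78 in both controls and above 0 in both rapamycin libraries, and the EIF4EBP2 to EIF4E ratio divides by number, with red and blue side by side.

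The surrounding initiation machinery was read from 2 lists. The first held 24 cap partners and regulators, of which 23 were tested. In the blocked fit 2 were higher, 1 was lower and 20 did not pass, beside 4.65% of all tested genes called higher and 3.50% called lower. *PDCD4*, an inhibitor that binds eIF4A, had the largest difference, with 51.7 and 55.5 CPM under rapamycin against 14.1 and 18.8 CPM in the controls, a 3.29-fold higher level (log2 fold change 1.72, SE 0.30, adjusted p = 0.00141). *MIF4GD*, which carries an eIF4G-like domain, was 2.16-fold higher (log2 fold change 1.11, SE 0.34, adjusted p = 0.0407). It was measured at 16.9 and 34.4 CPM under rapamycin and at 8.13 and 15.3 CPM in the controls. Its level in number 2 over number 1 differed by nearly as much, with a log2 fold change of 0.97. *DDX3X*, an RNA helicase that takes part in initiation, was measured at 208 and 231 CPM against 400 and 513 CPM, a 2.07-fold lower level (log2 fold change −1.05, SE 0.26, adjusted p = 0.0125).

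The second list held 27 other initiation factors, the subunits of eIF1, eIF2, eIF2B, eIF3 and eIF5 and eIF6, all tested, with 0 higher, 3 lower and 24 not past the threshold, beside the same shares of all genes. *EIF3B*, a core subunit of the eIF3 complex, was measured at 369 and 373 CPM under rapamycin and at 714 and 779 CPM in the controls (log2 fold change −1.01, SE 0.26, adjusted p = 0.0164). *EIF2S1*, the alpha subunit of eIF2, was lower in both pairs, with a log2 fold change of −0.97 (SE 0.27, adjusted p = 0.0249). Its groups overlapped, at 170 and 52.4 CPM under rapamycin and 261 and 131 CPM in the controls. *EIF1AX*, which helps scan for the start codon, had a log2 fold change of −0.88 (SE 0.26, adjusted p = 0.0326). Its groups overlapped too, at 29.8 and 98.0 CPM under rapamycin and 54.1 and 183 CPM in the controls. Number 2 over number 1 differed by more, with log2 fold changes of −1.34 for *EIF2S1* and 1.74 for *EIF1AX*. The median log2 fold change was −0.19 over the members, −0.21 over the cap partners and −0.17 over the other initiation factors, beside 0.05 over all genes tested. The difference was negative in both pairs for 5 of 10 members, 12 of 23 cap partners and 17 of 27 other factors, beside 31.8% of all tested genes. *EIF3C* has a near-identical copy, *EIF3CL*, and *EIF4EBP3* shares an annotated readthrough transcript, so the counts of both are uncertain.

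**Figure D4:**
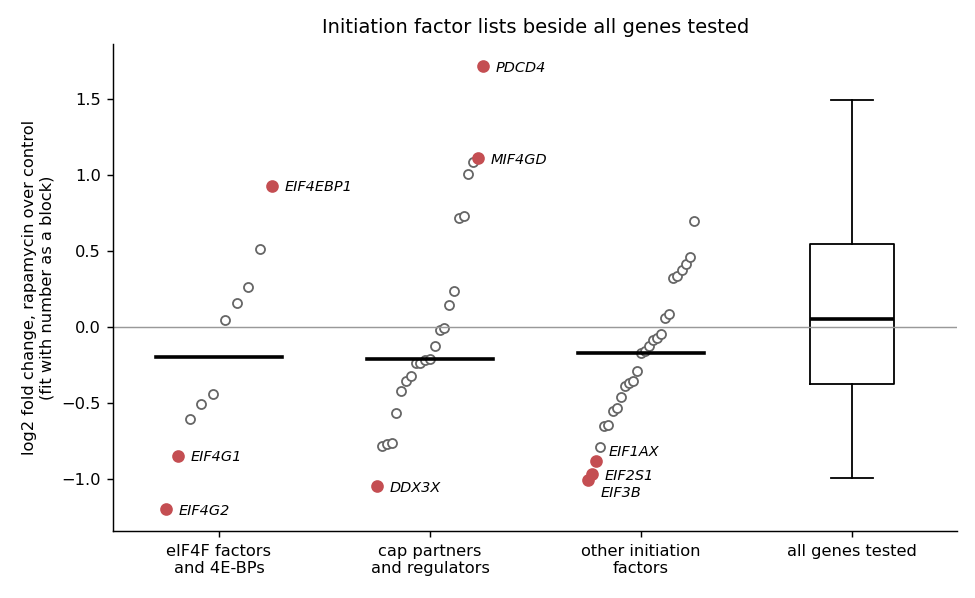
Log2 fold change of mRNA, rapamycin over control, with the number as a block (vertical axis) for the tested genes of 3 lists, filled red and named where the adjusted p was under 0.05, with black bars at the medians; the box shows the quartiles and the whiskers the 5th and 95th percentiles of all 15826 genes tested. The medians of the 3 lists lie between −0.21 and −0.17, and the median of all genes lies at 0.05.

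The genes whose levels over the 4 libraries were most like those of *EIF4G1* were *HNRNPH1*, *SON*, *SURF6*, *EBP* and *EWSR1*, in that order. Likeness was the Euclidean distance between log2 CPM values centred on each gene's mean, over the 5792 genes whose log2 CPM averaged 5 or more. The distance was 0.02 for *HNRNPH1* and 0.07 for *EWSR1*, beside a median of 1.04 over those genes. *HNRNPH1*, an RNA-binding splicing regulator, was measured at 281 and 294 CPM under rapamycin and at 446 and 584 CPM in the controls. The order of libraries shared with *EIF4G1*, with control 2 highest and rapamycin 1 lowest, follows from this choice by distance.

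The m6A peak lists held 8 peaks on the members among 14586 in all, and all 8 lay on the eIF4G family. *EIF4G1* carried peaks in all 4 lists, as did 3.61% of all tested genes and 7.90% of the 5800 genes of at least 5 log2 CPM. *EIF4G2* and *EIF4G3* each carried 1 peak, in CAL33 rapamycin cells, and no peak was listed on the other 7 members. The number of members with a peak was 1 in HSC3 control, 1 in HSC3 rapamycin, 1 in CAL33 control and 3 in CAL33 rapamycin. Of all tested genes, 17.6%, 17.5%, 16.1% and 14.2% carried a peak in the same order, and 35.4% carried one in any list. Each list came from a single pair of libraries of unknown depth, so no test between treatments was made, and a gene without a listed peak may still be methylated.

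**Figure D5:**
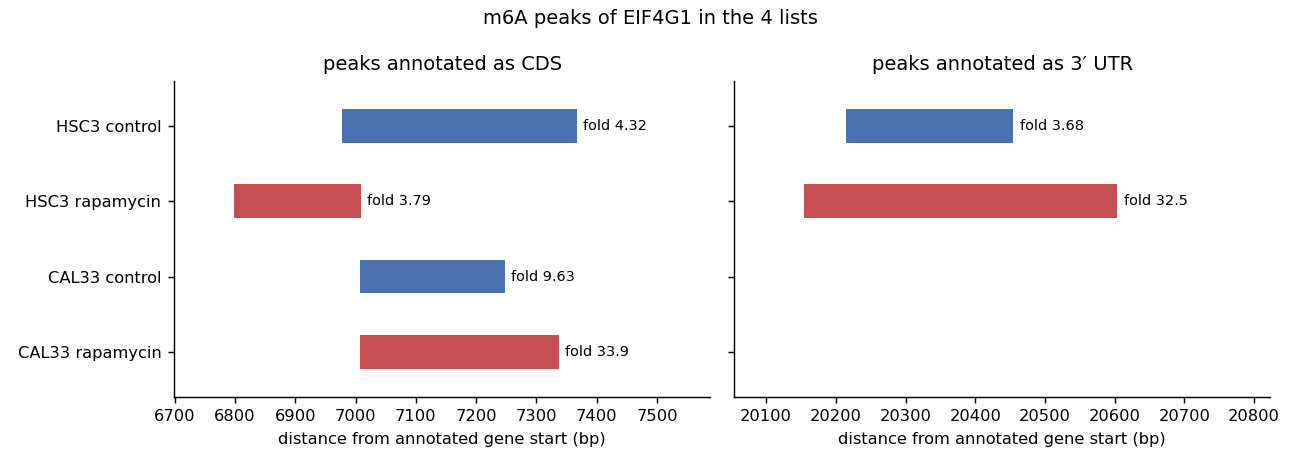
Extent of the EIF4G1 m6A peaks in each of the 4 lists (rows), in bp from the annotated gene start (horizontal axes, on the genome and including introns), controls in blue and rapamycin in red, with the authors' fold enrichment beside each bar. The CDS peak of HSC3 rapamycin lies on the 5′ side and shares 31 bp with that of HSC3 control, and the 3′ UTR peak is listed in both HSC3 lists and no CAL33 list.

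The CDS peak of *EIF4G1* was not at the same place in every list. In CAL33 control it covered 240 bp, all of them inside the 330 bp of the CAL33 rapamycin peak, which in turn lay inside the 390 bp of the HSC3 control peak. The HSC3 rapamycin peak (chr3:184321405-184321614) covered 210 bp and overlapped the HSC3 control peak by 31 bp and each CAL33 peak by 1 bp. Its edge therefore met the other peaks without covering their body. When at least 50% of the shorter peak had to overlap, the HSC3 rapamycin CDS peak matched no peak of the other lists. The HSC3 fold enrichments of 4.32 in control and 3.79 in rapamycin cells accordingly describe mostly different stretches of the coding sequence. The CAL33 values of 9.63 in control and 33.9 in rapamycin cells describe nested stretches of 240 and 330 bp. Within their lists, the CDS fold enrichments were at percentiles 6.23 and 3.53 in HSC3 control and rapamycin. They were at 15.3 and 48.7 in CAL33 control and rapamycin, so all lay under the middle of their lists.

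Ranks by p-value are given as each list holds them, over lists of unequal length. By the authors' p-value, the CDS peak ranked 155 of 3625 in CAL33 control and 75 of 3079 in CAL33 rapamycin cells. In HSC3, where the peaks share 31 bp, the CDS peak ranked 629 of 3930 in control and 1499 of 3952 in rapamycin cells. The 3′ UTR peak, 299 bp before the annotated end of the gene in HSC3 control and 150 bp before it in HSC3 rapamycin, was listed in both HSC3 lists. Its authors' fold enrichment was 3.68 in control and 32.5 in rapamycin cells, and its rank moved from 2223 to 696. By fold enrichment it lay at percentile 4.81 of its list in control and 48.0 in rapamycin cells, both under the middle. The 240 bp of the 3′ UTR peak in the control list lay wholly inside the 449 bp of that in the rapamycin list. Within HSC3 the fold enrichment listed for the 3′ UTR peak was thus higher with rapamycin, but over a longer stretch. This difference was not tested. The CDS peaks of HSC3 lie mostly apart, so their values give no difference at the same place. *EIF4G1* mRNA was lower with rapamycin in both numbered pairs.

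The peak of *EIF4G2* in CAL33 rapamycin cells (chr11:10800997-10801177, minus strand) was 181 bp long and annotated only as exon. Its fold enrichment of 3.03 was at percentile 2.89 of its list, and it ranked 2380 of 3079 by p-value, so it was among the weaker peaks. The peak of *EIF4G3* (chr1:20864507-20864657, minus strand) was 151 bp long, lay in the CDS, had a fold enrichment of 16.7 at percentile 30.7 and ranked 1523 of 3079. Neither overlapped a peak of another list, as was so for 49.2% of the CAL33 rapamycin peaks. *EIF4G2*, with a lower mRNA level, and *EIF4G3*, with no call, were alike in this respect.

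In the surrounding lists, 8 of 24 cap partners and 5 of 27 other initiation factors carried a peak in at least 1 list, beside the 35.4% of all tested genes given above. *EIF3A*, the largest subunit of eIF3, carried peaks in all 4 lists, and its mRNA had a log2 fold change of −0.64 with the block (SE 0.26, adjusted p = 0.119). *LARP1*, which binds the TOP sequence of mRNAs under mTOR control, carried peaks in 3 lists, and its log2 fold change was −0.21 (SE 0.25, adjusted p = 0.657). Of the 6 partner genes past the mRNA threshold, *DDX3X* carried a peak, in CAL33 rapamycin cells. *EIF4EBP1* and *PDCD4* carried none in any list.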

How the data were processed

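For RNA-seq, the authors deposited raw counts of reads per gene from HTSeq, without normalization. Each pair of immunoprecipitated and input libraries has 1 deposited list of m6A peaks, with the fold enrichment (a ratio over input), the log10 p-value and the log10 false discovery rate of each peak. The submitters' processing notes name cutadapt 2.5, HISAT2 2.1.0, featureCounts 1.6.3 and HOMER 4.10.4 and build hg38, without roles. The RNA-seq kit is strand-specific, and the use of strand in counting and the peak caller's settings are not given in the sources used here.

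Genes were kept by filterByExpr, scaled by TMM and tested with the quasi-likelihood test of edgeR 4.0.16 in R 4.3.3, with Benjamini-Hochberg adjustment over 15826 genes at 0.05. A second fit had the library number as a block, which left 1 residual degree of freedom. Its SE therefore rests mostly on spread shared across genes. The difference between numbers 1 and 2 correlated at 0.901 across genes between rapamycin and control, and the MeRIP-seq labels, where each number stands for a line, give the source of this pairing, although the RNA-seq labels speak against it. Alternatives were DESeq2 1.42.0, other normalizations, other filters, each library left out, stricter overlaps and peak thresholds, and matching by symbol. Normalizations other than upper-quartile combined with the block, and the comparison of peak genes with library numbers, were added after the data were seen. The ratios of *EIF4G1* to *EIF4G2*, *EIF4G3*, *EIF4A1* and *EIF4E* were planned, and the other ratios were not. Overlaps required 1 bp on the same strand. Positions count from 1. The members and gene lists were chosen with earlier results of these data known. Named were all members, up to 6 list genes per list past the blocked threshold with both pairs alike, and the 5 genes nearest to *EIF4G1*; *EIF3A*, *LARP1*, *EIF3C* and *EIF4EBP3* were named for their peaks or annotation. Peak sequences were not used here.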

Additional observations from a re-analysis of the deposited data

Results flagged for a closer look

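*EIF4B* differed between rapamycin and control by −0.45 in pair 1 and by 0.54 in pair 2 on the log2 scale, so the pairs went in opposite directions. The difference between the pairs was not tested, since 4 libraries leave no degrees of freedom for it.

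The authors' fold enrichment of the *EIF4G1* CDS peak differed on the log2 scale by −0.19 between rapamycin and control in HSC3, and by 1.82 in CAL33. The HSC3 peaks share 31 bp, each list stands for 1 pair of libraries, and the difference was not tested.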

How the results depend on the processing

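Member calls for rapamycin, and any call for rapamycin by edgeR, rested on the block on library number. Without a block, 0 genes and 0 members were called, and DESeq2 called 42 genes. With the block, 1290 genes and 3 members were called. DESeq2 with the block called 818 genes and 3 members. The block with upper-quartile normalization called 1165 genes and 2 members, with DESeq2 size factors 1230 and 2, and with total counts 1045 and 2. The member lost was *EIF4G1* each time, with adjusted p from 0.0128 to 0.0787 over the 5 blocked fits. Number 1 against number 2 called 5899 genes, and 3927 with at least 10 counts in every library. *EIF4B* changed sign without a filter on low counts (−0.0033) and ranged from −0.24 to 0.39 with each library left out in turn. *EIF4A2* ranged from −0.87 to 1.26 on leaving out a library. The direction of the other 8 members did not change under any alternative run. No fit with a library left out could carry the block. The share of genes with a peak in HSC3 control, HSC3 rapamycin, CAL33 control and CAL33 rapamycin was 15.5%, 16.1%, 15.3% and 13.1% at a false discovery rate of at most 0.05. It was 16.6%, 16.6%, 15.3% and 13.4% by gene symbol, and 27.6%, 27.2%, 27.1% and 22.8% among genes of at least 5 log2 CPM. All 8 member peaks had a false discovery rate of at most 0.05, and of the 6 that overlapped another list, 5 did so by at least 50% of the shorter peak. The unknown depth of the MeRIP-seq libraries limits what the absence of a peak shows.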
